A study of Mus musculus with 10 samples.

Results

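The genes described here are 34 enzymes and carriers that bring pyruvate into the TCA cycle, turn the cycle and oxidise fatty acids in mitochondria. They were taken from a fixed list of symbols, with no cut on a measured value but with earlier results of these data known. All 34 were among the 18194 genes measured. Of these, 17 act in pyruvate entry and the TCA cycle and 17 in fatty acid oxidation. Their mRNA was measured in sorted mouse splenic B cells on 10 Affymetrix whole-genome mouse arrays, as log2 probe set signals. Where several probe sets are assigned to a symbol alone, the brightest on average stood for the gene.

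The 3 groups were naive B cells (n = 4), germinal centre (GC) B cells of the B1-8 line (n = 3) and GC B cells of the V23 line (n = 3). Naive cells came from spleens of unimmunized Balb/c mice. Both GC lines were on the Balb/c background, had a deletion of the endogenous JH locus and carried 1 heavy chain transgene, which was VH186.2-Tg in B1-8 and V23-Tg in V23. Their B cells therefore carry a preset heavy chain rather than a natural repertoire. These mice received 50 µg of NP-CGG, the hapten NP coupled to chicken gamma globulin, i.p. in alum. At day 14 splenocytes positive for λ light chain, peanut agglutinin (PNA) binding and B220 were sorted, and dead cells were gated out by scatter and propidium iodide in all groups. Immunization, transgene, JH deletion and sorting stain all differ between GC and naive cells and cannot be told apart. The B1-8 heavy chain with a λ light chain binds NP with higher affinity than V23, so the comparison of the lines sets GC cells of different antigen affinity side by side. Nothing in the labels says that replicates are separate mice, so the p-values may measure only technical spread.

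As background, pyruvate dehydrogenase converts pyruvate from glycolysis into acetyl-CoA, and pyruvate carboxylase makes oxaloacetate from it. The TCA cycle oxidises acetyl-CoA to carbon dioxide and passes electrons to the respiratory chain, and its intermediates also leave as building blocks. Fatty acids enter mitochondria as carnitine esters and are shortened in repeated rounds of dehydrogenation, hydration, a further dehydrogenation and thiolysis, each round releasing acetyl-CoA. The first dehydrogenation passes its electrons through the electron transfer flavoprotein, which also serves amino acid breakdown. GC B cells divide rapidly while they mutate and select their antigen receptors, whereas naive follicular B cells rest, and the fuel that GC B cells use has been much studied.

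Promoter windows are printed for 6 members: Hadhb, for which no change was called, and others whose change in GC cells is a main result below. They come from RefSeq on build GRCm38.p6, run 5′ to 3′ on the gene's strand, and cover 250 bases before to 50 bases after the transcription start. Windows were found for 32 of the 34 members, and Idh3a and Acaa2 had none. Hadha and Hadhb encode the subunits of the mitochondrial trifunctional protein and lie head to head on chromosome 5. Their windows, chr5:30154931-30155230 (minus strand) for Hadha and chr5:30155003-30155302 (plus strand) for Hadhb, share 228 bases, and their starts lie 273 bases apart. Capitals mark the shared bases, which are reverse complements of each other in these lines.
Hadha: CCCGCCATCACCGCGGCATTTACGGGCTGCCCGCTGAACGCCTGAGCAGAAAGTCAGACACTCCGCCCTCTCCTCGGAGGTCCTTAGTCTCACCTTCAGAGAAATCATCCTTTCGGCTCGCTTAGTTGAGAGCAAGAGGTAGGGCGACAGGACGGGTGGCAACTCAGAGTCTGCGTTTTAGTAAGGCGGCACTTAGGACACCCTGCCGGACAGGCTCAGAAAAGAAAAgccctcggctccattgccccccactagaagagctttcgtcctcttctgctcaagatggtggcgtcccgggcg
Hadhb: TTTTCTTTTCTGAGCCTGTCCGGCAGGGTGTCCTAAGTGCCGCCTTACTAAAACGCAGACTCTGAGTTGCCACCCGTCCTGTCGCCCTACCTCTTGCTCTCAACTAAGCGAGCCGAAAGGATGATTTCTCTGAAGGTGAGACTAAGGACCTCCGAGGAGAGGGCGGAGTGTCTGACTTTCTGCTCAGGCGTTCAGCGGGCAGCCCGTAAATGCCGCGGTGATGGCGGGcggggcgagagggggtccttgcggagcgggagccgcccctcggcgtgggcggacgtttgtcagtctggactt

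The next windows belong to the electron transfer flavoprotein subunits Etfa (chr9:55512194-55512493, minus strand) and Etfb (chr7:43443822-43444121, plus strand) and to Etfdh (chr3:79628718-79629017, minus strand), the enzyme that takes over their electrons. They are shown because the first pair rose in GC cells while Etfdh fell. The window of Acadm, the medium-chain acyl-CoA dehydrogenase, is chr3:153944594-153944893 (minus strand) and is shown because Acadm had the smallest p of the genes that fell. Capitals mark the letters CCAAT, the NRF1 motif and AAGGTCA (the motif of estrogen-related receptors), each searched on both strands.
Etfa: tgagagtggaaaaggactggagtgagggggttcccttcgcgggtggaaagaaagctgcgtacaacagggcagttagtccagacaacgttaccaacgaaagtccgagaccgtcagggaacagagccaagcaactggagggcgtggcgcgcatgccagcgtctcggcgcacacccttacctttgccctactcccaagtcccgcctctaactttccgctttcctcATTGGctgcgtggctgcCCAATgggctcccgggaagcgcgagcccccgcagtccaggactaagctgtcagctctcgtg
Etfb: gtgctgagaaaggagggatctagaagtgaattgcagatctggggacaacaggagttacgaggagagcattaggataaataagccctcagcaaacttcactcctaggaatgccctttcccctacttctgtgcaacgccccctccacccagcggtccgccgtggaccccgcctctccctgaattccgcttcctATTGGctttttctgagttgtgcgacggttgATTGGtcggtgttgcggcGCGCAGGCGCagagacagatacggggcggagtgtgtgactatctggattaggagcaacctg
Etfdh: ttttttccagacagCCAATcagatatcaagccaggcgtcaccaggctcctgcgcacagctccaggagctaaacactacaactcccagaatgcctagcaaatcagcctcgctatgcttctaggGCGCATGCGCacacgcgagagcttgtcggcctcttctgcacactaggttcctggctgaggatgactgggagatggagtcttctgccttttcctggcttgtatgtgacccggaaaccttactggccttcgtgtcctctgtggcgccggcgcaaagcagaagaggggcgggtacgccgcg
Acadm: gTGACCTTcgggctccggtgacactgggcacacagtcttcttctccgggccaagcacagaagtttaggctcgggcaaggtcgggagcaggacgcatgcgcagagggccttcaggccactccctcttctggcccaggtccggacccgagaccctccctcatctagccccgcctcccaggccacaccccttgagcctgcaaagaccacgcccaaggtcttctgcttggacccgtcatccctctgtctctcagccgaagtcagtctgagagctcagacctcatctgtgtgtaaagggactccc

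Both flavoprotein subunits had CCAAT or its reverse close before the start, at −28 and −11 in Etfa and at −59 and −29 in Etfb, counted to the first base of the match. Etfb also had the NRF1 motif, as GCGCAGGCGC, at −11, and Etfdh had it as GCGCATGCGC at −128 and CCAAT at −236. Acadm had the reverse of AAGGTCA at −249. The NRF1 motif was in 4 of 32 members (12.5%) against 8.95% of 13690 tested genes with a window, and CCAAT in 15 (46.9%) against 42%. AAGGTCA was in 2 members (6.25%) against 4.58%. The GC box GGGCGG was in 24 members (75%) against 58.6%, the ETS letters CCGGAAG in 5 (15.6%) against 15.6%, the YY1 letters AANATGGC in 4 (12.5%) against 8.25%, and the E box CACGTG in 2 (6.25%) against 10.4%. The PPAR element, a direct repeat of AGGTCA with 1 base between that can overlap AAGGTCA, was in 0 members and in 0.0438% of tested genes. These matches are a description of the letters in these windows and are no sites.

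The array data fit the cell labels in the main markers. The mean log2 signal of 7 measured GC B cell markers was 9.17 to 10.50 on naive arrays, 12.24 to 12.26 on B1-8 arrays and 12.17 to 12.29 on V23 arrays. In the mean of both GC lines 6 of these 7 were called higher, and Rgs13 was not called, at −0.05. The mean of 5 markers of naive follicular B cells ran the other way, from 11.93 to 12.09 in naive cells to 8.38 to 9.19 in B1-8 and 8.57 to 9.02 in V23 cells. Pan-B markers were high on every array but lower in GC cells, with list means of 13.48 to 13.63 in naive, 13.09 to 13.32 in B1-8 and 12.84 to 13.14 in V23 cells, and 3 of 7 measured were called lower in the mean of both GC lines. Neutrophil markers moved with the groups: the mean of 11 measured of 12 markers was 7.04 to 8.90 in naive, 10.66 to 10.70 in B1-8 and 10.07 to 10.94 in V23 cells, and 11 of 11 rose in the mean of both GC lines, with the defining S100a8 and S100a9 among them. Means for macrophage markers (10 of 10) were 6.57 to 8.41, 6.91 to 7.30 and 6.34 to 6.64 in the same order, and those for T cell markers (6 of 8) 6.98 to 7.83, 6.97 to 7.37 and 6.59 to 7.02. Those for erythroid markers (5 of 7) were 5.30 to 6.64, 4.66 to 5.79 and 4.67 to 5.19, and 2 of 4 tested were called lower in the mean of both GC lines. Of 9 macrophage markers tested, 1 was called higher and 4 lower in that mean, and 1 of 6 T cell markers was lower. Plasma cell markers (7 of 7) averaged 9.52 to 9.95 in naive, 9.16 to 10.07 in B1-8 and 9.54 to 9.64 in V23 cells. Of these 7, 2 were called higher and 1 lower in the mean of both GC lines. Naive replicate 4 had the highest neutrophil (8.90), macrophage (8.41), T cell (7.83) and erythroid (6.64) means of the naive arrays. Without it, 16 members were called higher and 7 lower in the mean of both GC lines, 14 and 5 in B1-8 and 15 and 7 in V23 cells. Among naive arrays, replicates 2 and 4 had the highest GC markers, at 10.50 and 9.86. RNA quality moved too, since the Actb 3′ minus 5′ signal difference was 1.46 ± 0.17 (SD, n = 4) in naive, 0.98 ± 0.20 (n = 3) in B1-8 and 0.78 ± 0.08 (n = 3) in V23 cells. The part of other cells and of RNA quality in the results below was not tested. In bulk samples, fewer cells of a type and less RNA per cell cannot be told apart.

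Most genes of pyruvate entry and the TCA cycle were higher in GC than in naive B cells, while the oxidation genes split about evenly between higher, lower and not called. The largest increases were in Hadha, Idh3a, Etfa, Suclg1 and Etfb, at 1.75- to 1.99-fold in the mean of both GC lines. The largest decreases were in Slc25a20, Eci2 and Acadm, to 0.573- to 0.617-fold of the naive level. None of the 34 changed by 2-fold in that mean. A gene was called changed when the Benjamini-Hochberg adjusted p of limma, a moderated linear model fitted to all 17204 tested genes, was under 0.05.

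In the mean of both GC lines against naive cells, 16 of 34 members were called higher and 7 lower. The background is high in these data, since 41.5% of all tested genes were called, 20.5% higher and 21% lower. It is higher still for well-measured genes: of 6584 genes with a mean log2 level of 9 or more, a range that holds 33 of the 34 members, 64.2% were called, 33.4% higher and 30.8% lower. The TCA arm had 10 of 17 higher and 1 lower, with a median log2 difference of 0.33. The oxidation arm had 6 higher and 6 lower, with a median of −0.02, against 0.06 for all tested genes. The median of all genes moved to 0.16 when arrays were centred on their own medians and to 0.12 after quantile normalization, and the members' calls moved to 16 higher and 4 lower, and to 15 and 6. With those scalings the split of all calls moved to 4165 higher and 2912 lower, and to 4113 and 3179, from 3521 and 3619. Without naive replicates 2 and 4, 12 members were called higher and 6 lower, and the calls of Dlat, Dld, Sucla2, Acads and Etfdh were lost. At an unadjusted p under 0.05, 24 of the 34 members passed, against 48.4% of all tested genes.

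**Figure D1:**
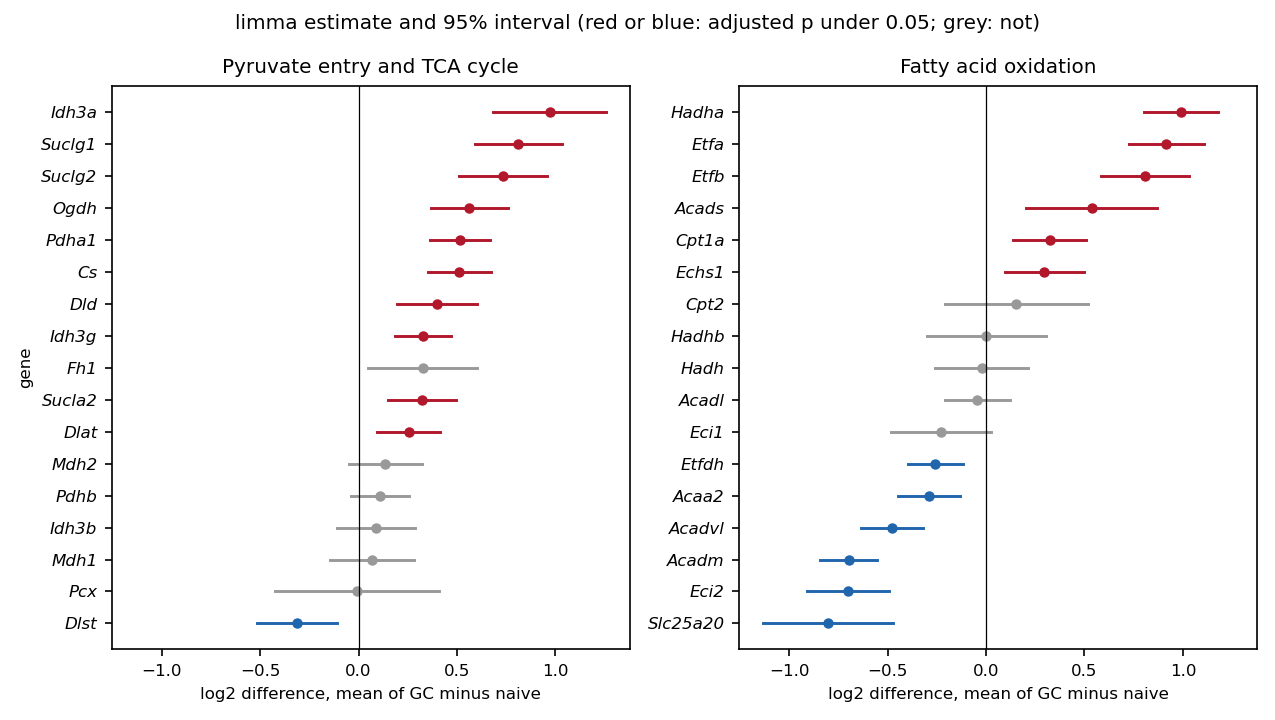
The log2 difference between the mean of both GC lines and naive cells is plotted for each gene with its 95% confidence interval, TCA genes left and oxidation genes right, sorted by size. Red and blue mark an adjusted p under 0.05; the TCA panel runs from Idh3a at 0.97 to Dlst at −0.31, and the oxidation panel from Hadha at 0.99 to Slc25a20 at −0.80.

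Each line was also compared with the naive cells on its own, and both comparisons share the 4 naive arrays. In GC B1-8 cells 16 members were higher and 5 lower (background 33.7%, 16.4% higher and 17.3% lower). In GC V23 cells 14 were higher and 7 lower (background 37.9%, 18.2% and 19.7%). Among genes with a mean of log2 9 or more the background was 54.5% in B1-8 (28.4% higher, 26.1% lower) and 60.4% in V23 (31.3% and 29.1%). The genes higher in B1-8 cells were Pdha1, Dlat, Dld, Cs, Idh3a, Idh3g, Ogdh, Suclg1, Suclg2, Sucla2, Cpt1a, Acads, Hadha, Echs1, Etfa and Etfb, and those lower were Slc25a20, Acadvl, Acadm, Eci2 and Etfdh. In V23 cells Acads (0.46 ± 0.17, adjusted p = 0.065) and Echs1 (0.28 ± 0.10, adjusted p = 0.0661) did not pass, against 0.61 ± 0.17 and 0.31 ± 0.10 in B1-8 cells. Dlst and Acaa2 passed as lower in V23 cells, at −0.32 ± 0.10 and −0.34 ± 0.08, and did not pass in B1-8 cells, at −0.31 ± 0.10 and −0.24 ± 0.08. For none of these 4 genes did the lines differ from each other by limma, with adjusted p of at least 0.82. The B1-8 counts rest on single arrays: 9 members were called higher without B1-8 replicate 2 and 10 without B1-8 replicate 3, and 3 were called lower without naive replicate 3, B1-8 replicate 1 or B1-8 replicate 2. Without naive replicates 2 and 4 the counts were 10 and 4 in B1-8 and 10 and 5 in V23.

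Counting arrays rather than tests gave a like picture. All 6 GC arrays lay above all 4 naive arrays for 16 members and below them for 7, and the other 11 overlapped. Over all tested genes 35.5% had no overlap, 17% above and 18.5% below, and among genes with a mean of log2 9 or more it was 60.8%, 31.8% above and 29% below. The TCA arm had 11 genes above and 1 below, and the oxidation arm 5 above and 6 below.

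**Figure D2:**
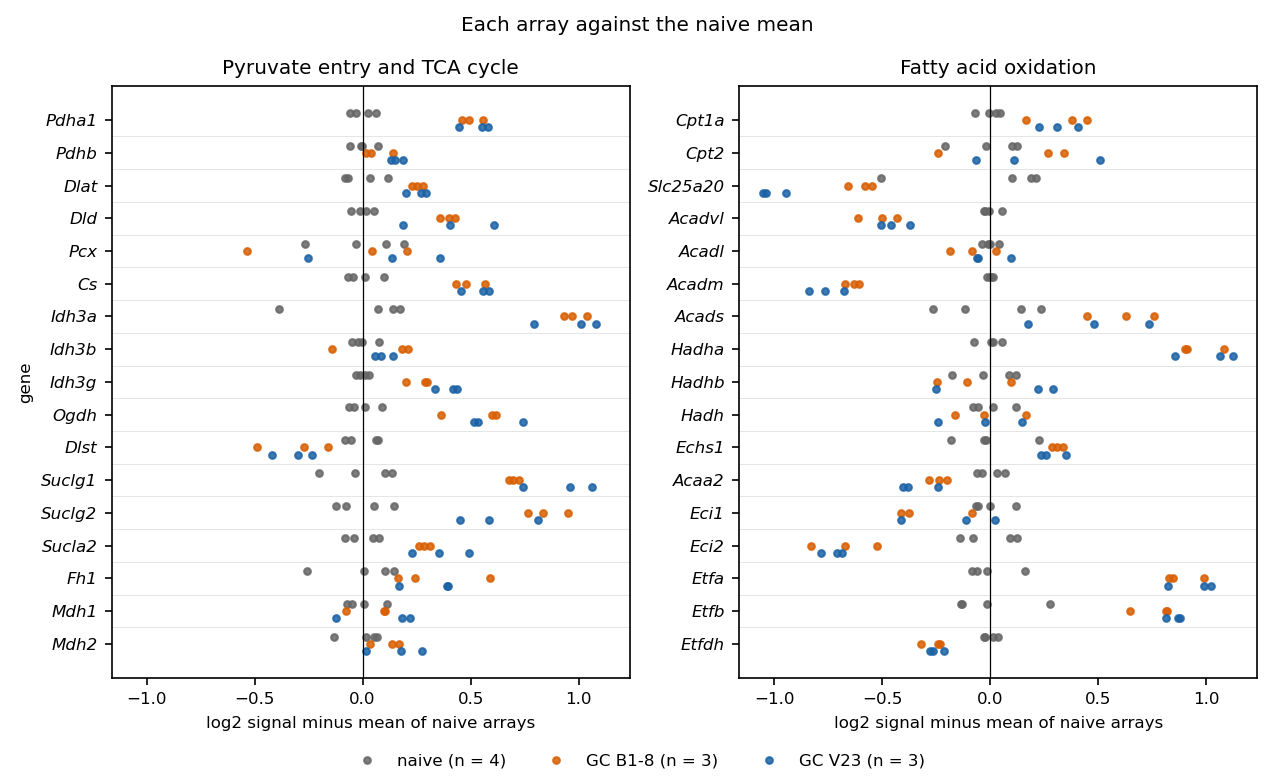
Each point is 1 array, drawn as its log2 signal minus the mean of the 4 naive arrays for the gene (naive grey, GC B1-8 orange, GC V23 blue). GC points of Hadha, Etfa, Etfb and Idh3a lie clear to the right of the naive points and those of Acadm and Eci2 to the left, while those of Pdhb, Mdh1 and Hadhb mix with them. GC points of Slc25a20 also lie to the left, but naive replicate 4 (9.97) lies close to the highest of them (9.92).

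Pyruvate entry was represented by 4 subunit genes of the pyruvate dehydrogenase complex and by Pcx, pyruvate carboxylase. Of these 5 genes, 3 rose and 0 fell by limma, and 3 had an unadjusted p under 0.05, against 48.4% of all tested genes. Among genes with a mean of log2 9 or more, 64.2% passed at the adjusted threshold. The log2 signals of Pdha1 were 11.15, 11.09, 11.06 and 11.19 in naive cells, 11.68, 11.61 and 11.58 in GC B1-8 cells and 11.57, 11.68 and 11.70 in GC V23 cells. Pdha1 encodes the E1α subunit, which the regulatory kinases phosphorylate. Every GC array lay above every naive array, and the difference was 0.52 ± 0.07 (SE; 1.43-fold, adjusted p = 0.00031 by limma). Its partner Pdhb, E1β, did not pass at 0.11 ± 0.06 (95% confidence interval −0.04 to 0.26), and its arrays overlapped. Dlat, the E2 acetyltransferase core, rose by 0.25 ± 0.07 (adjusted p = 0.0176). That call was lost without naive replicate 3 and without probe sets of the _x_at kind, which can bind related sequences. For each line alone the Dlat call was weaker, being lost in 17 of 22 alternatives in B1-8 and in 14 of 22 in V23 cells. Dld, the E3 dihydrolipoamide dehydrogenase shared with the oxoglutarate complex, rose by 0.40 ± 0.09 (adjusted p = 0.00685; 0.121 on averaging its probe sets), with V23 arrays spread from 10.44 to 10.86. Pcx, the dimmest member with a mean log2 signal of 7.66, differed by −0.01 ± 0.18 (−0.43 to 0.41).

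In the TCA cycle itself, 7 of 12 genes rose and 1 fell. Of genes with a mean of log2 9 or more, 33.4% were called higher and 30.8% lower. Cs read 12.12, 12.29, 12.15 and 12.20 on the naive arrays, 12.76, 12.67 and 12.62 on the GC B1-8 arrays and 12.77, 12.75 and 12.64 on the GC V23 arrays. Citrate synthase, which Cs encodes, joins acetyl-CoA to oxaloacetate and opens the cycle. Its GC arrays all lay above the naive ones, and the difference was 0.51 ± 0.07 (1.43-fold, adjusted p = 0.000452).

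For Idh3a the naive arrays gave 10.67, 10.56, 10.11 and 10.63, the GC B1-8 arrays 11.53, 11.46 and 11.42 and the GC V23 arrays 11.29, 11.50 and 11.57. Idh3a encodes the catalytic subunit of the NAD-dependent isocitrate dehydrogenase. Naive replicate 3 was the lowest array, every GC array lay above every naive array, and the difference was 0.97 ± 0.13 (1.96-fold, adjusted p = 0.000316). The other subunits moved less: Idh3g rose by 0.33 ± 0.06 (adjusted p = 0.00269, and 0.0619 after quantile normalization), and Idh3b did not pass at 0.09 ± 0.09 (−0.11 to 0.29).

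The log2 signals of Ogdh were 10.85, 10.90, 10.82 and 10.98 in naive cells, 11.49, 11.25 and 11.51 in GC B1-8 cells and 11.42, 11.63 and 11.40 in GC V23 cells. Ogdh is the E1 subunit of the 2-oxoglutarate dehydrogenase complex. All GC arrays exceeded the naive ones, with a difference of 0.56 ± 0.09 (1.48-fold, adjusted p = 0.000834). Dlst read 10.81, 10.68, 10.80 and 10.65 on the naive arrays, 10.46, 10.24 and 10.57 on the GC B1-8 arrays and 10.31, 10.50 and 10.44 on the GC V23 arrays. Dlst, the E2 subunit of the same complex, was lower on every GC array than on every naive array. Its decrease of −0.31 ± 0.09 (0.805-fold, adjusted p = 0.0202) passed in V23 cells (adjusted p = 0.0411) and not in B1-8 cells (adjusted p = 0.052). The call was lost after median centring (−0.21) and without naive replicate 1 or naive replicate 3.

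Succinyl-CoA ligase makes GTP or ATP, depending on which β subunit joins the shared α subunit Suclg1. For Suclg1 the naive arrays gave 10.80, 10.97, 10.64 and 10.94, the GC B1-8 arrays 11.54, 11.51 and 11.56 and the GC V23 arrays 11.58, 11.80 and 11.90. Its GC arrays lay well above the naive ones, at 0.81 ± 0.10 (1.75-fold, adjusted p = 0.0002). The log2 signals of Suclg2 were 10.28, 10.33, 10.46 and 10.55 in naive cells, 11.24, 11.17 and 11.35 in GC B1-8 cells and 10.85, 11.22 and 10.99 in GC V23 cells. Suclg2, the GTP-forming β subunit, rose by 0.73 ± 0.10 (1.66-fold, adjusted p = 0.000377), again with no overlap. Sucla2, the ATP-forming β subunit, rose less, by 0.32 ± 0.08 (1.25-fold, adjusted p = 0.0087). The Sucla2 call was lost on averaging its probe sets (adjusted p = 0.528), and its call in B1-8 cells was lost when any 1 naive or B1-8 array, or V23 replicate 2, was left out.

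The last steps moved little on the probe sets used. Fh1, fumarate hydratase, was higher on every GC array than on every naive array, from at most 12.84 to at least 12.86, but did not pass, at 0.33 ± 0.12 (adjusted p = 0.0619). Mdh2, the mitochondrial malate dehydrogenase, differed by 0.14 ± 0.08 (−0.05 to 0.32), and Mdh1, the cytosolic enzyme of the malate-aspartate shuttle, by 0.07 ± 0.09 (−0.15 to 0.28). Other probe sets of Mdh1 and Mdh2 gave larger values, described with the probe sets below.

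The carnitine shuttle showed 1 gene up and 1 down. Cpt1a read 11.40, 11.45, 11.33 and 11.43 on the naive arrays, 11.57, 11.85 and 11.78 on the GC B1-8 arrays and 11.63, 11.81 and 11.71 on the GC V23 arrays. Cpt1a is the outer-membrane carnitine palmitoyltransferase that commits long-chain fatty acids to oxidation. GC and naive arrays did not overlap, and the difference was 0.32 ± 0.08 (1.25-fold, adjusted p = 0.0115). That call was lost on averaging its probe sets (adjusted p = 0.122), and each line's own call also after quantile normalization, without naive replicate 1 or 3, and without replicate 2 or 3 of that line. For Slc25a20 the naive arrays gave 10.68, 10.66, 10.57 and 9.97, the GC B1-8 arrays 9.92, 9.89 and 9.81 and the GC V23 arrays 9.43, 9.42 and 9.53. Slc25a20 is the inner-membrane carrier that swaps acylcarnitine for carnitine. Naive replicate 4 lay close to the B1-8 arrays, and the V23 arrays were lowest. The difference was −0.80 ± 0.14 (0.573-fold, adjusted p = 0.00207), −0.59 ± 0.17 in B1-8 and −1.01 ± 0.17 in V23 cells. The Slc25a20 call in B1-8 cells was lost in 8 of 22 alternatives, with adjusted p by limma up to 0.102. Among these were median centring, leaving out naive replicate 1, 2 or 3, and leaving out any 1 B1-8 array. Cpt2, the inner-membrane transferase, differed by 0.15 ± 0.16 (−0.21 to 0.52) and did not pass.

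Of the 4 acyl-CoA dehydrogenases, which differ in the chain length they prefer, those for very long and medium chains fell and that for short chains rose. The log2 signals of Acadm were 11.45, 11.48, 11.47 and 11.47 in naive cells, 10.86, 10.80 and 10.84 in GC B1-8 cells and 10.63, 10.79 and 10.70 in GC V23 cells. The naive arrays of Acadm lay close together and the GC arrays were all lower, at −0.70 ± 0.06 (0.617-fold, adjusted p = 4.25e-05). Acadvl read 10.28, 10.26, 10.34 and 10.27 on the naive arrays, 9.85, 9.79 and 9.67 on the GC B1-8 arrays and 9.92, 9.78 and 9.83 on the GC V23 arrays. Acadvl, the very-long-chain enzyme of the inner membrane, fell by 0.48 ± 0.07 on the log2 scale (0.717-fold, adjusted p = 0.000567), with no overlap. Acadl, the long-chain enzyme, did not pass at −0.04 ± 0.07 (−0.21 to 0.12). For Acads the naive arrays gave 8.44, 8.59, 8.85 and 8.94, the GC B1-8 arrays 9.34, 9.47 and 9.16 and the GC V23 arrays 8.88, 9.44 and 9.19. Acads, the short-chain enzyme, rose by 0.54 ± 0.15 (1.45-fold, adjusted p = 0.0166), but V23 replicate 1 lay below naive replicate 4. Without naive replicate 1 the Acads call was lost.

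The trifunctional protein carries the next 3 steps for long chains on the α subunit Hadha and the β subunit Hadhb, the thiolase. The log2 signals of Hadha were 10.72, 10.72, 10.63 and 10.77 in naive cells, 11.62, 11.79 and 11.61 in GC B1-8 cells and 11.84, 11.77 and 11.57 in GC V23 cells. Hadha had the largest increase of the 34 genes, and all its GC arrays lay above every naive array. The difference was 0.99 ± 0.08 (1.99-fold, adjusted p = 2.57e-05), 0.96 ± 0.10 in B1-8 and 1.02 ± 0.10 in V23 cells. Hadhb read 12.61, 12.49, 12.35 and 12.65 on the naive arrays, 12.28, 12.42 and 12.62 on the GC B1-8 arrays and 12.27, 12.82 and 12.74 on the GC V23 arrays. Hadhb overlapped fully on this probe set, at 0.00 ± 0.13 (−0.30 to 0.30), although its start lies 273 bases from that of Hadha. Another Hadhb probe set rose by 0.39 (below), so the step between the subunits depends on the probe set in size, while Hadha rose more than Hadhb with either.

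The short-chain enzymes moved little on the probe sets used. Echs1, the short-chain enoyl-CoA hydratase, rose by 0.30 ± 0.09 (adjusted p = 0.0257), a call lost without naive replicate 1, 2 or 3, B1-8 replicate 1 or V23 replicate 2, with adjusted p up to 0.0718. The Echs1 call in B1-8 cells was lost in 13 of 22 alternatives. Hadh, the short-chain hydroxyacyl-CoA dehydrogenase, differed by −0.02 ± 0.10 (−0.26 to 0.21) on a probe set of the _x_at kind. The Hadh probe set not of that kind fell by 0.30 (adjusted p = 0.0351 by limma over all probe sets), and another _x_at one gave 0.59 without passing. Without _x_at probe sets, Hadh was called lower in B1-8 cells and in the mean of both lines. Acaa2, a mitochondrial thiolase, fell by 0.29 ± 0.07 on the log2 scale (0.818-fold, adjusted p = 0.00865), and by 0.19 with no call after median centring.

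The enoyl-CoA isomerases shift double bonds so that unsaturated fatty acids can enter the spiral. For Eci2 the naive arrays gave 10.47, 10.24, 10.30 and 10.50, the GC B1-8 arrays 9.71, 9.55 and 9.86 and the GC V23 arrays 9.67, 9.69 and 9.59. Eci2, which also acts in peroxisomes, was lower on every GC array, at −0.70 ± 0.09 (0.615-fold, adjusted p = 0.000325). Eci1 leaned the same way without passing, at −0.23 ± 0.11 (−0.48 to 0.03).

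The electron transfer flavoprotein and its acceptor moved apart. Etfa read 10.84, 11.02, 10.77 and 10.80 on the naive arrays, 11.70, 11.85 and 11.68 on the GC B1-8 arrays and 11.68, 11.88 and 11.84 on the GC V23 arrays. The log2 signals of Etfb were 11.13, 11.24, 11.12 and 11.53 in naive cells, 12.07, 12.07 and 11.90 in GC B1-8 cells and 12.07, 12.14 and 12.13 in GC V23 cells. Both subunits of the flavoprotein were higher on every GC array than on every naive array, Etfa by 0.92 ± 0.08 (1.89-fold, adjusted p = 4.32e-05) and Etfb by 0.81 ± 0.10 (1.75-fold, adjusted p = 0.000229). For Etfdh the naive arrays gave 9.77, 9.80, 9.83 and 9.76, the GC B1-8 arrays 9.47, 9.55 and 9.56 and the GC V23 arrays 9.53, 9.51 and 9.58. Etfdh, the ubiquinone oxidoreductase that accepts their electrons, was lower on every GC array, but by a smaller step of −0.26 ± 0.06 (0.837-fold, adjusted p = 0.00872). The Etfdh call was lost after median centring (−0.16) and after quantile normalization (−0.13).

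Between the lines, 0 of 34 members passed in GC B1-8 against GC V23 by limma, and 0 had an unadjusted p under 0.05. Of all tested genes 0.0233% passed, and 7.72% had an unadjusted p under 0.05. The smallest adjusted p of a member was 0.65. The widest gap was in Slc25a20, at 0.42 higher in B1-8, with a 95% confidence interval that reached from just below 0 to 0.83. The confidence intervals of all 34 reached from 0.176 to 0.529 to each side of the estimate, with a median of 0.253. These intervals are not adjusted for the number of genes tested, so a call at the adjusted threshold needed a larger difference. The lines are therefore not shown to be alike. B1-8 and V23 arrays did not overlap for 4 members, with B1-8 higher for Slc25a20 and Acadm and lower for Idh3g and Suclg1. Over all tested genes 13.7% had no such overlap, and 17.5% of those with a mean of log2 9 or more.

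Averaged over each arm, the TCA genes were higher on every GC array than on every naive array, and the oxidation genes overlapped. The mean log2 signal of the 17 TCA genes was 11.22 ± 0.02 (SD, n = 4) in naive, 11.55 ± 0.04 (n = 3) in B1-8 and 11.59 ± 0.09 (n = 3) in V23 cells. The 17 oxidation genes averaged 10.60 ± 0.02, 10.63 ± 0.04 and 10.62 ± 0.05. The TCA mean minus the oxidation mean was 0.610 to 0.663 on naive, 0.871 to 0.995 on B1-8 and 0.915 to 1.00 on V23 arrays, so that all GC arrays exceeded all naive arrays. Its size on one array has no meaning, since probes differ in brightness, but its change of 0.31 between GC and naive cells is free of any scaling by a constant per array. Averaging all probe sets of a gene gave 0.25 and quantile normalization also 0.25. The genes of an arm are not replicates, so no p is given.

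**Figure D3:**
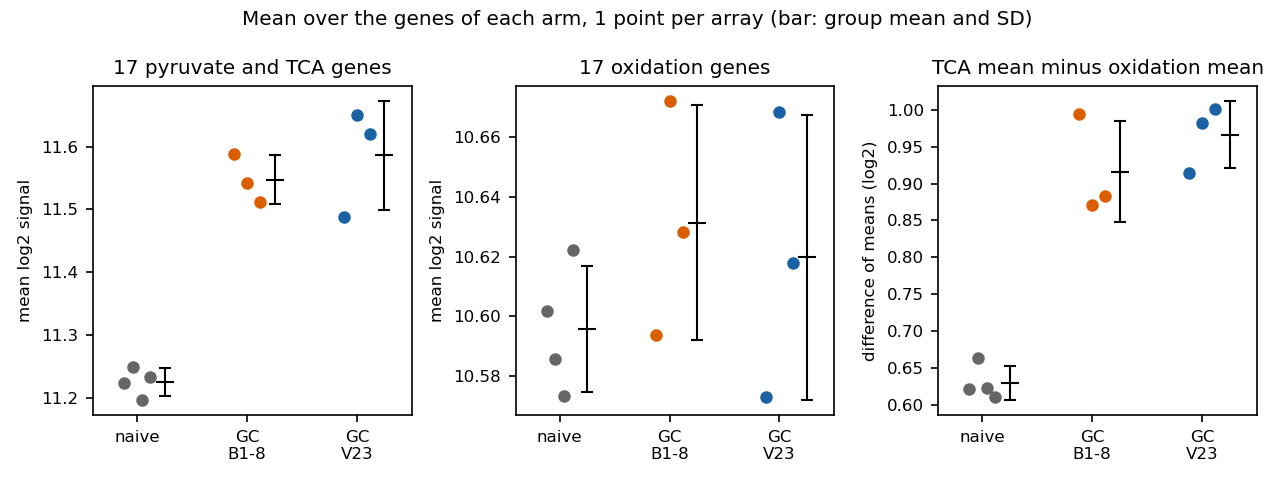
Points are arrays; bars show the group mean and SD (naive n = 4, GC B1-8 n = 3, GC V23 n = 3) of the mean log2 signal over 17 TCA genes (left), over 17 oxidation genes (middle) and of their difference (right), each on its own axis range. The TCA mean rises from 11.22 to 11.55 and 11.59, and the difference from 0.63 to 0.92 and 0.97, while the oxidation mean stays between 10.57 and 10.67 on all arrays.

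Genes that work in 1 complex or catalyse 1 kind of step did not all change by the same amount. For 25 pairs within 7 complexes or families, the log2 difference between both genes was taken on each array, and GC arrays (n = 6) were compared with naive arrays (n = 4). In 20 pairs the change passed a two-sided exact permutation test over 210 splits, adjusted over the 25 pairs, and in 14 the arrays did not overlap. The smallest p such a test allows is 0.0048, or 0.0085 after adjustment, and each of those 14 pairs reached it. The share of other gene pairs that would pass was not taken, so these counts do not set the listed pairs apart. Among single genes with a mean of log2 9 or more, GC and naive arrays did not overlap for 60.8%.

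Among the oxidation pairs, the largest changes were Acadm minus Acads at −1.24, Etfa minus Etfdh at 1.17, Etfb minus Etfdh at 1.06, Acadvl minus Acads at −1.02 and Hadha minus Hadhb at 0.99. In the TCA cycle they were Idh3a minus Idh3b at 0.88, Ogdh minus Dlst at 0.87, Dlst minus Dld at −0.71 and Idh3a minus Idh3g at 0.64. All of these reached the smallest p. Within pyruvate dehydrogenase, Pdha1 minus Pdhb changed by 0.40 and Pdha1 minus Dlat by 0.26. The 5 pairs that did not pass were Pdha1 minus Dld (0.12), Dlat minus Dld (−0.14), Ogdh minus Dld (0.16), Suclg1 minus Suclg2 (0.08) and Etfa minus Etfb (0.11), with adjusted exact permutation p between 0.103 and 0.638. Each difference is taken within an array, so a constant scaling of the array cancels. Leaving out _x_at probe sets moved Hadha minus Hadhb to 0.61 (unadjusted exact permutation p = 0.0048) and ended the call of Pdhb minus Dlat (p = 0.31).

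**Figure D4:**
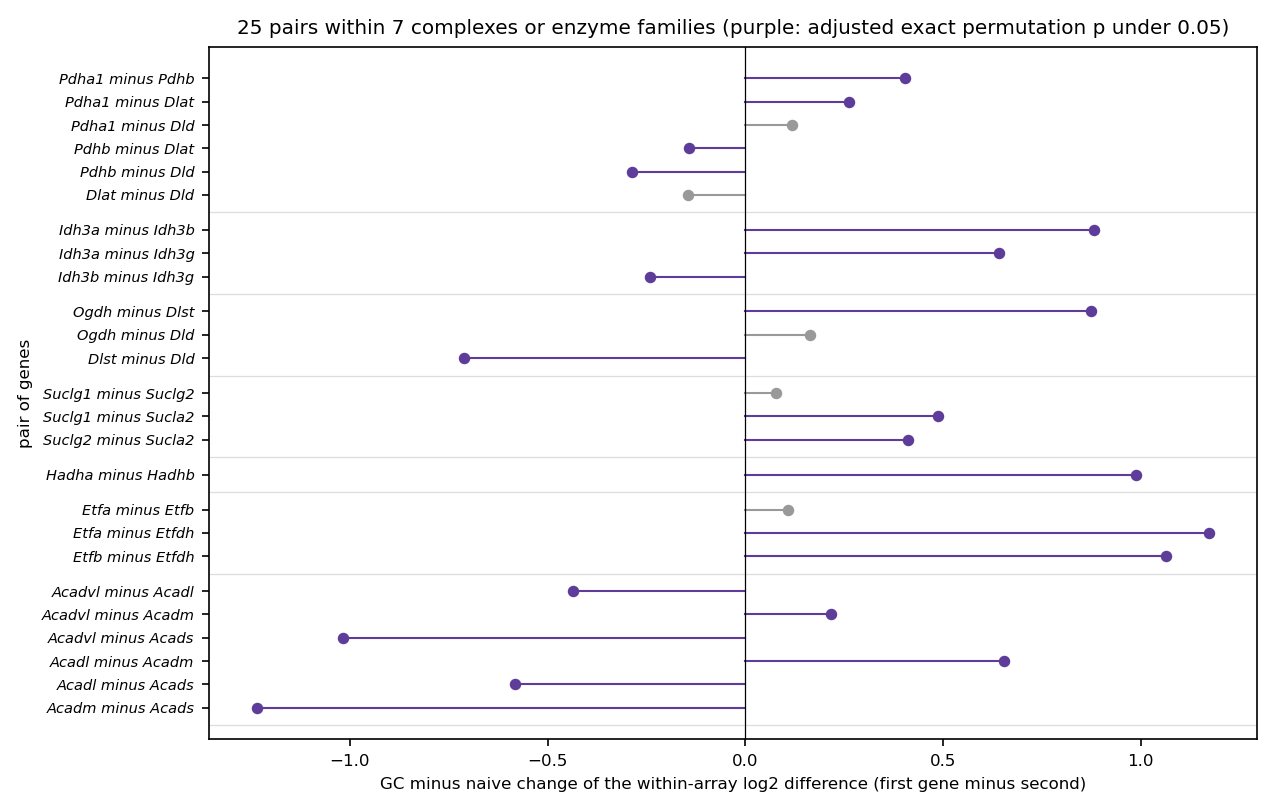
For each of 25 pairs, the point gives how much the log2 difference of the first gene minus the second changed from naive (n = 4) to GC arrays (n = 6); purple marks an adjusted exact permutation p under 0.05. Etfa minus Etfdh lies farthest right at 1.17 and Acadm minus Acads farthest left at −1.24, while Etfa minus Etfb and Suclg1 minus Suclg2 lie near 0.

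Several genes have more than 1 probe set, and these did not always move together. The members have 75 single-symbol probe sets, 23 genes having several and 11 just 1. For 4 genes, Dlat, Ogdh, Mdh1 and Hadhb, 1 probe set or more was called higher and another lower in a fit to all probe sets. Citrate synthase agreed across its 3 probe sets, all higher (0.51 to 0.91), as did both of Pdha1 (0.52 and 0.89), Suclg2 (0.73 and 0.62) and Idh3g (0.33 and 0.42). Idh3a was higher on 3 of 4, and both probe sets of Slc25a20 were lower (−0.80 and −0.64).

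The malate dehydrogenases looked different on other probe sets. For Mdh1 the brightest probe set, with a mean log2 signal of 13.35, gave 0.07, whereas those averaging 13.24 and 12.28 gave 0.52 (adjusted p = 0.00318) and 0.72 (adjusted p = 0.000217). Its dim probe sets, averaging 7.40 and 6.98, gave −1.37 and 2.17. For Mdh2 the brighter probe set gave 0.14 and the other, averaging 12.46, gave 0.62 (adjusted p = 0.00193). The 3 probe sets of Hadhb, averaging 12.52, 11.50 and 6.43, gave 0.00, 0.39 (adjusted p = 0.0119) and −2.65 (adjusted p = 0.00308). Dlst had 3 probe sets that fell, by 0.31, 1.80 and 1.80 on the log2 scale, and 1 that did not pass (0.26). The dimmer probe set of Ogdh, averaging 8.46, gave −0.59 (adjusted p = 0.00485) against 0.56 for the brighter one. Which transcripts or regions these probe sets read was not analysed here. The array also carries 4 control probe sets for Pcx along its mRNA. The 5′ one rose by 0.68 (adjusted p = 0.00622), while both middle ones (−0.24 and 0.91, adjusted p = 0.733 and 0.147) and the 3′ one (−0.50, adjusted p = 0.18) did not pass. A difference between these positions was not tested.

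**Figure D5:**
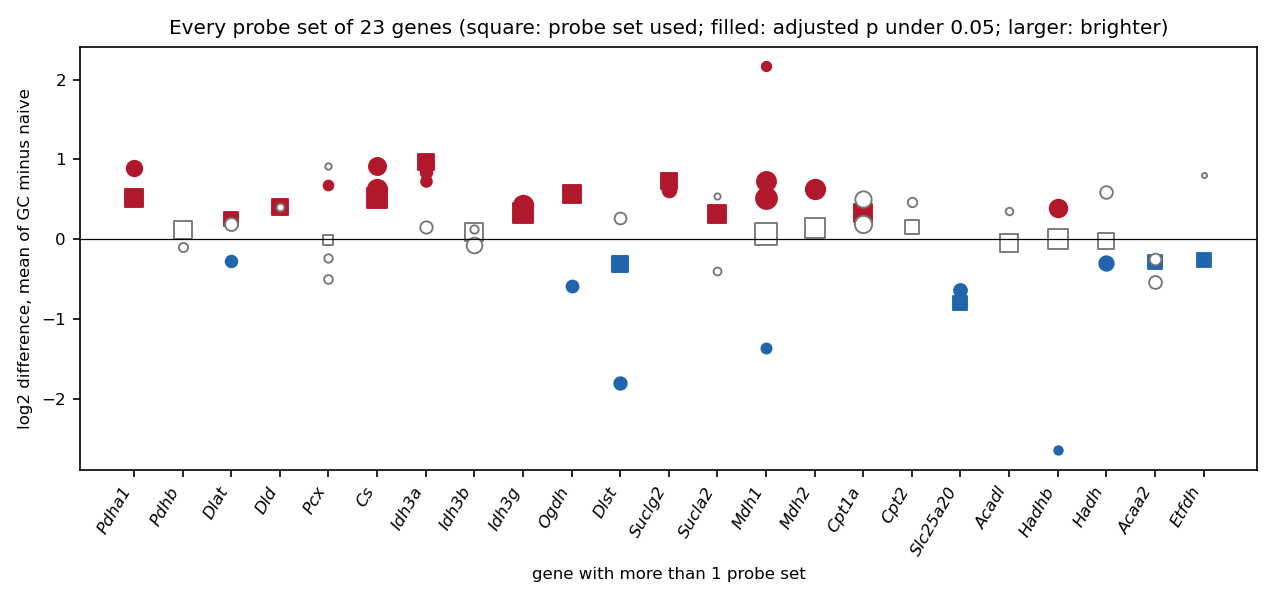
Every probe set of the 23 genes that have more than 1 is drawn by its log2 difference between the mean of both GC lines and naive cells; squares are the probe sets used for the gene, filled symbols have an adjusted p under 0.05 and larger symbols are brighter. Cs and Pdha1 lie above 0 throughout and Slc25a20 below 0, while Mdh1 spans −1.37 to 2.17 and Hadhb −2.65 to 0.39.

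Other TCA cycle genes encode succinate dehydrogenase, which is also complex II of the respiratory chain, and Idh2. Of 5 genes measured, 3 rose and 0 fell in the mean of both GC lines by limma, and 3 had an unadjusted p under 0.05, against 48.4% of all tested genes. Among genes with a mean of log2 9 or more, 33.4% were called higher and 30.8% lower, shares that also stand beside the lists below. Sdhb, the iron-sulfur subunit, rose by 1.20 ± 0.07 (adjusted p = 5.36e-06), more than any of the 34 genes, and by 1.13 and 1.28 in B1-8 and V23 cells. Sdhd, a membrane anchor, rose by 0.72 ± 0.11 (adjusted p = 0.00083), and Sdha, the flavoprotein subunit, by 0.50 ± 0.09 (adjusted p = 0.00253). Idh2, the NADP-dependent mitochondrial enzyme, did not pass at 0.09 ± 0.15.

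Genes that control pyruvate dehydrogenase were called in both directions. Of 8 genes tested, 2 rose and 3 fell, against 20.5% higher and 21% lower of all tested genes. The kinases that switch the complex off moved in opposite directions, with Pdk3 at 1.48 ± 0.11 (adjusted p = 1.87e-05) and Pdk1 at −1.47 ± 0.25 (adjusted p = 0.0014). Pdk2, named after its value was seen, was at −2.33 ± 0.54 (adjusted p = 0.00791), with B1-8 arrays spread by an SD of 1.58. Pdhx, the E3-binding protein, rose by 0.66 ± 0.10, and Pdpr, the regulatory subunit of the phosphatase, fell by 0.65 ± 0.10.

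Side reactions and carriers that feed or drain the cycle had 11 of 16 genes higher and 1 lower, with a median difference of 0.64. Of all tested genes, 20.5% were called higher and 21% lower, and of those with a mean of log2 9 or more 33.4% and 30.8%. Slc25a13, a mitochondrial aspartate-glutamate carrier, rose by 1.70 ± 0.16 (adjusted p = 4.55e-05). Me2, the mitochondrial malic enzyme, rose by 1.24 ± 0.11, Got2, the mitochondrial aspartate aminotransferase, by 1.14 ± 0.10 and Slc25a10, the dicarboxylate carrier, by 1.11 ± 0.11. The 1 gene that fell was Got1, the cytosolic aminotransferase, at −0.49 ± 0.10, named after its value was seen.

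Around the fatty acid genes the pattern was more mixed. Uptake, release and activation had 6 of 17 genes higher and 5 lower, against 20.5% and 21% of all tested genes. Mgll, monoacylglycerol lipase, rose by 1.57 ± 0.17 and Acsl3, a long-chain acyl-CoA synthetase, by 1.05 ± 0.08. Slc22a5, the plasma membrane carnitine transporter, fell by 1.17 ± 0.10 and Lipa, lysosomal acid lipase, by 0.82 ± 0.09. The other 3 lower genes, named after their values were seen, were Cd36 (−0.85), Slc27a1 (−0.53) and Slc27a4 (−0.48).

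A list of further mitochondrial oxidation genes also held genes of malonyl-CoA control and acyl-CoA dehydrogenases for branched chains. It is therefore not a list of fatty acid oxidation steps alone. Of its 12 genes, 0 were higher by limma, also at an unadjusted p under 0.05, and 7 were lower. The shares of all tested genes called were 20.5% higher and 21% lower, and of those with a mean of log2 9 or more 33.4% and 30.8%. Acadsb fell by 1.01 ± 0.11, the thioesterase Acot2 by 0.67 ± 0.09, Acad11 by 0.55 ± 0.10 and Acad9 by 0.48 ± 0.10. The median of the 12 was −0.39. Peroxisomal oxidation had 2 of 14 higher and 2 lower, against the same shares. Ehhadh, the peroxisomal bifunctional enzyme, rose by 1.78 ± 0.14 (adjusted p = 2.14e-05), and Abcd3 by 0.20 ± 0.07. Amacr, a racemase for branched chains, fell by 1.23 ± 0.12 and Pecr by 0.86 ± 0.11.

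Regulators of oxidation and mitochondrial genes had 2 of 14 higher and 5 lower, against 20.5% and 21% of all tested genes. Ppargc1b, a coactivator of mitochondrial gene expression, fell by 1.19 ± 0.12 (adjusted p = 9.29e-05), Esrra, an estrogen-related receptor, by 0.86 ± 0.15 and Nrf1 by 0.64 ± 0.11. Gabpa, an ETS factor, rose by 0.38 ± 0.08. Tfam (−0.26), Ppard (−1.49) and Hif1a (0.20) also passed and were named after their values were seen. In the mean of both GC lines, genes of mitochondrial import, chaperones and carriers had 10 of 16 higher and 0 lower, with a median of 0.26. The shares were 20.5% higher and 21% lower of all tested genes, and 33.4% and 30.8% of those with a mean of log2 9 or more. The 10 higher genes included Tomm40 at 1.57 ± 0.09, Vdac3 at 1.07 ± 0.07, Phb2 at 0.72 ± 0.08 and Vdac2 at 0.69 ± 0.06. By limma 11 of these 16 had an unadjusted p under 0.05 in either direction, against 48.4% of all tested genes. In B1-8 cells 7 were higher and 1 lower, the chaperonin Hspe1 (−0.42), named after its value was seen, and in V23 cells 9 were higher and 0 lower, with 10 at an unadjusted p under 0.05.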

How the data were processed

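RNA of sorted splenic B cells was hybridised to 10 arrays, 4 of naive, 3 of GC B1-8 and 3 of GC V23 cells, grouped by the sample titles. The deposited values are log2 signals per probe set. Per the submitters' processing notes the tool was GCRMA, with its version not given in the sources used here. The deposited log2 values have another form: after trimming 2% at each end, the mean of the unlogged signals was the same on every array, as in MAS5 signals scaled to a target. They were used as deposited, without further normalization. Arrays give no read counts, so the number of arrays limits the precision.

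Of 45101 probe sets, 34958 have 1 gene symbol, 932 several and 9211 none in the platform annotation. Of several single-symbol probe sets of a gene, the brightest on average was used, and a gene was tested when its log2 signal was above 4 on at least 3 arrays (17204 of 18194 genes). One limma 3.58.1 model (R 4.3.3) of 3 group means was fitted to all 10 arrays with empirical Bayes moderation (7 residual and 1.46 prior degrees of freedom), two-sided, with Benjamini-Hochberg adjustment within each comparison at 0.05. Differences are given ± SE and group levels ± SD. Pairs of genes were compared by two-sided exact permutation over arrays. The fit was tested on simulated data.

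The members, the pathway and marker lists and the pairs were chosen with earlier results of these data known. All members may be named; of the other lists, the up to 4 genes with the smallest p in the mean of both GC lines, plus Idh2, Sdha, Sdhb, Pdk1, Ppargc1b, Esrra and a gene not reported here. Promoters and motifs come from RefSeq (GRCm38.p6). Alternatives covered the filter, the probe set of a gene, scaling, a floor, moderation, array weights, the samples fitted, a replicate block, a 2-fold minimum and arrays left out. Leaving out _x_at probe sets was chosen after seeing the data.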

Additional observations from a re-analysis of the deposited data

Results flagged for a closer look

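The level of Slc25a20, the carnitine-acylcarnitine carrier, on naive replicate 4 stood apart from the other naive arrays. It read 9.97, and the nearest naive array read 10.57. The gap was 0.847 of the group's whole range, above Dixon's critical value of 0.829 for 4 samples. The 4 naive values of all 34 genes were looked at in this way, and chance gives such a value in about 1 of 20 groups. Without this array the log2 difference of Slc25a20 was −0.97 in the mean of both GC lines against naive cells by limma, against −0.80 with it. The same array had the highest neutrophil, macrophage, T cell and erythroid marker means among the naive arrays, and the part of other cells in its value was not tested.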

How the results depend on the processing

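Across the alternatives, 2641 values of single genes kept direction and side of the threshold, 160 lost a call and 40 gained one. Another 8 turned sign with a call on either side, and 109 turned sign with no call on either side. These totals cover every comparison, also that of the lines, where 0 members were called. The 2641 include genes uncalled in both fits, so the 160 are not a share of the calls. In every alternative run that gave a value, 11 of 21 calls in B1-8, 13 of 21 in V23 and 12 of 23 in the mean of both lines were kept. The 12 are Pdha1, Cs, Idh3a, Suclg1, Suclg2, Slc25a20, Acadvl, Acadm, Hadha, Eci2, Etfa and Etfb. Of these, Slc25a20 was not kept in every run in B1-8 cells. Median centring left 3 lower members in B1-8, 4 in V23 and 4 in the mean. A 2-fold minimum left 0 higher and 0 lower in B1-8, 1 and 1 in V23 (Hadha and Slc25a20) and 0 and 0 in the mean. Without naive replicates 2 and 4, 10 members were higher in B1-8. Leaving out 1 array at a time gave 9 to 14 higher and 3 to 6 lower members in B1-8.

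The TCA mean minus the oxidation mean changed by 0.29 in B1-8, 0.34 in V23 and 0.31 in the mean. Averaging all probe sets gave 0.21, 0.28 and 0.25, and quantile normalization 0.22, 0.27 and 0.25. Averaging probe sets, dim ones included, also turned the sign of Etfdh (0.12 in B1-8, 0.43 in V23, 0.27 in the mean), of Ogdh (−0.087 in B1-8, −0.012 in the mean) and of Hadhb (−0.95 in V23, −0.75 in the mean). Without _x_at probe sets Hadhb in B1-8 was 0.33. The cause was not tested.

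The labels number the replicates in each group, but the numbers do not pair the samples: deviations from the group means correlated between same-numbered arrays at −0.008 to 0.072. With the replicate number as a block, 11 members were higher and 4 lower in B1-8, 11 and 5 in V23, 14 and 6 in the mean, and 0 between the lines. A fit of the compared groups alone was run for each pair of groups and has no value for the mean of both lines.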
